A study of Mus musculus with 8 samples.

Results

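A set of 9 genes of the IL-6 cytokine family and its signalling chain was examined in mouse astrocytes given TGF-β. Its members were chosen by name: the ligands Il11, Il6, Lif and Cntf, the shared receptor Il6st and the ligand-binding receptors Lifr and Il11ra1, the transcription factor Stat3 and the inhibitor Socs3. The table of read counts holds 13937 genes and 8 of these 9, and all 8 passed the filter on low counts. Cntf was read from a second table of 18644 genes, in which levels are given as FPKM, a measure corrected for both transcript length and library depth.

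The astrocytes were primary cultures from the brains of C57BL/6 pups aged 1 day, either wild type (WT) or lacking RGC-32, a protein of the TGF-β response encoded by Rgcc. They were grown in serum, shaken to remove loosely attached cells, starved of serum overnight, and then left untreated or stimulated with TGF-β at 10 ng/ml for 24 h. Each genotype, WT or RGC-32 knockout (KO below), thus has a control and a TGF-β group, 4 groups in all, with 2 libraries each that the labels call biological replicates. The labels do not say how many pups went into a culture or whether controls and stimulated cells came from 1 culture, and each library is a mixture of whatever cells the dish held.

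Cytokines of the IL-6 family signal through receptor complexes that share gp130, the protein made from Il6st. IL-11 and IL-6 first bind receptors of their own, encoded by Il11ra1 and Il6ra, and CNTF has its own as well, encoded by Cntfr. LIF and CNTF bring gp130 together with the LIF receptor. The complexes activate Janus kinases and STAT3, and STAT3 in turn switches on Socs3, whose product blocks the receptor. In the brain this chain is known for promoting the formation of astrocytes and their reactive state.

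TGF-β raised 2 of the 8 counted genes, Il11 and Lif, in both WT and KO astrocytes. With DESeq2, another test program, Il11 did not pass the threshold in either genotype. On the FPKM scale Cntf fell in both genotypes. Il6st, Stat3 and Socs3 did not pass the threshold in either genotype. No counted member passed it between WT and KO cells. Il6 was at 0 counts in 1 of the 2 control libraries of each genotype, so its change with TGF-β could not be measured well.

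The stretches before the start sites of the ligands and of Socs3 are printed because the 3 members that passed the threshold were ligands and Socs3 is the classical STAT3 target among the 9. They are the 250 bases before the start from RefSeq, build GRCm38.p6, written 5′ to 3′ in the direction of transcription. They run over chr7:4778142-4778391 on the minus strand for Il11, chr5:30012864-30013113 on the plus strand for Il6, chr11:4257318-4257567 on the plus strand for Lif, chr19:12765633-12765882 on the minus strand for Cntf and chr11:117969367-117969616 on the minus strand for Socs3. Capitals mark a match to the AP-1 motif TGANTCA in the first 4 and to the STAT motif TTCNNNGAA in Socs3.
Il11, second start: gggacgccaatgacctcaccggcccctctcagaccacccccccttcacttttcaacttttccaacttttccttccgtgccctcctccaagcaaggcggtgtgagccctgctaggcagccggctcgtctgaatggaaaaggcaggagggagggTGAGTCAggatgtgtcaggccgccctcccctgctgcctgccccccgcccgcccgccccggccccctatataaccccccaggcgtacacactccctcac
Il6: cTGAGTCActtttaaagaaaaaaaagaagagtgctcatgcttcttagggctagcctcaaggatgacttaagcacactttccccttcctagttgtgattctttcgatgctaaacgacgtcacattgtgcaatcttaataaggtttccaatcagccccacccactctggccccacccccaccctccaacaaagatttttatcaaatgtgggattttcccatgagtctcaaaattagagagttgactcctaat
Lif: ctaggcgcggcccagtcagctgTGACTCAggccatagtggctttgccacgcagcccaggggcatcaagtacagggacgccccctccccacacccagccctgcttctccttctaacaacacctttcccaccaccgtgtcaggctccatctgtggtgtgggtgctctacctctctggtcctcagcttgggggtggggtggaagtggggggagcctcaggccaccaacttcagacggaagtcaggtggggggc
Cntf: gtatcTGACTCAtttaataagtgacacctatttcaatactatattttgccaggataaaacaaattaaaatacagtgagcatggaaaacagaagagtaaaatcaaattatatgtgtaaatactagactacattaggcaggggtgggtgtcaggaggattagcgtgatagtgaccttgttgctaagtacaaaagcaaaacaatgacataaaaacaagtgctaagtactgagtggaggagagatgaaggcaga
Socs3: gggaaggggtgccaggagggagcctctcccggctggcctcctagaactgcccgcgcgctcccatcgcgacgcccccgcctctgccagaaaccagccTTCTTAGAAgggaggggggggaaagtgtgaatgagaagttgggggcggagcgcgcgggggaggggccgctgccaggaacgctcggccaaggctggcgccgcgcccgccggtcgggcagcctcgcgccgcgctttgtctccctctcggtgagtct
In GENCODE M21 the Il11 window lay in an intron of a longer Il11 transcript and the Cntf window in an intron of Zfp91. The Lif window held 11 bases of an annotated first exon. The Socs3 window lay wholly within the annotated span of Socs3, which starts further upstream, at position 117970047, and held 77 exon bases of that gene.

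RefSeq gives 12 windows for the 9 genes, since Il11, Lifr and Il11ra1 have 2 start sites each. The AP-1 motif occurred in 4 of them, all of ligand genes, and in 6.75% of 32851 windows of all genes. Counted from the start site, it lay at -98 to -92 in Il11, at -228 to -222 in Lif, at -245 to -239 in Cntf and at -249 to -243 in Il6. The other Il11 start site had no match. The STAT motif occurred in 1 member window, that of Socs3 at -154 to -146, and in 7.02% of all windows. No member window held the SMAD palindrome GTCTAGAC, present in 0.167% of all windows, or the CRE motif TGACGTCA, present in 1.55%. At such low shares, a lack of matches in 12 windows says little, and shorter forms of these 2 motifs were not searched. All matches given here are matches of letters on either strand, and motifs that read the same on both strands were counted once. Il11 and Lif, which rose, and Cntf, which fell, all held the AP-1 letters.

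The libraries held 14920561 to 18956038 counts, and CPM below are counts scaled to library size after TMM normalization. Rgcc, the targeted gene, had 80 and 94 counts in WT control, 215 and 362 in WT TGF-β, 61 and 28 in KO control and 64 and 26 in KO TGF-β. It was thus lower in every knockout library than in any WT library, but not at 0. Across all 13509 genes tested with edgeR, TGF-β moved 13.4% past the threshold in WT and 11.5% in KO cells, at a log2 fold change of at least 0.6 either way and a Benjamini-Hochberg adjusted p under 0.05. All adjusted p-values of counted genes below are from this edgeR quasi-likelihood fit.

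The astrocyte markers were present, with all 10 of the list in the count table and none at 0 in any library. Their summed level was 4228 to 4463 CPM in WT control, 3333 to 3465 in WT TGF-β, 4913 to 5630 in KO control and 4143 to 4450 in KO TGF-β. All 12 microglia and macrophage markers were also present, at a sum of 1165 to 1666 CPM over the 8 libraries, and none passed the threshold with TGF-β in either genotype. The sum of 10 fibroblast markers was 4281 to 5484 CPM in WT control against 8936 to 10070 in WT TGF-β, and 3518 to 3714 in KO control against 6650 to 6787 in KO TGF-β. Of these 10, 4 rose and 2 fell in WT, and 4 rose and 1 fell in KO cells. Without the 3 collagen genes of that list, a split made after its values were seen, the sum was 630.3 to 688.9 CPM in WT control against 625.3 to 676.5 in WT TGF-β, and 561.3 to 587.3 in KO control against 577.4 to 611.7 in KO TGF-β. The part of these other cell types in the results below was not tested, and in bulk RNA fewer cells of a type cannot be told from less RNA per cell.

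**Figure D1:**
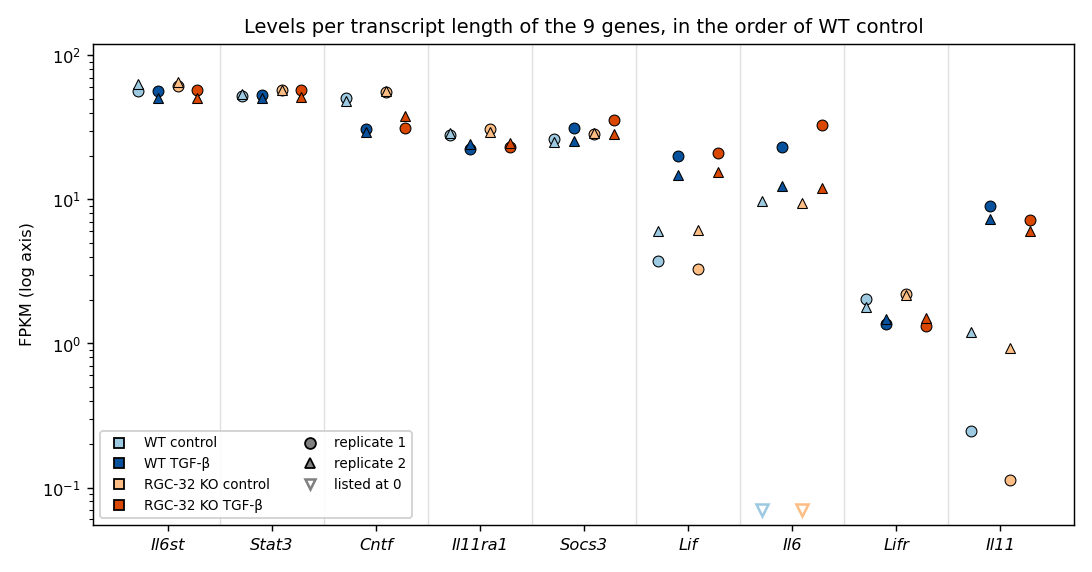
FPKM of the 9 genes in each of the 8 libraries, on a log axis, in the order of their mean in WT control. Circles are replicate 1 and triangles replicate 2, and open triangles at the foot mark libraries in which Il6 is listed at 0. Il6st, Stat3 and Cntf stand highest in the controls, and Il11 moves from below Lifr in the controls to above it with TGF-β.

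Per transcript length, the receptor subunit and the transcription factor were the most abundant members. In WT control, Il6st was at 59.9 ± 4.36 FPKM (SD, n = 2), Stat3 at 52.9 ± 1.24, Cntf at 49.5 ± 1.71, Il11ra1 at 28.5 ± 0.73 and Socs3 at 25.7 ± 0.78. Far below them came Lif at 4.89 ± 1.59, Il6 at 4.84 ± 6.85, Lifr at 1.92 ± 0.18 and Il11 at 0.73 ± 0.68. Lif and Il6, and Il6 and Lifr, overlapped between libraries, whereas the other neighbours in this order did not. The order was the same in KO control, with the same overlaps.

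With TGF-β, Il11 reached 8.16 ± 1.13 FPKM in WT and 6.65 ± 0.81 in KO cells, above Lifr at 1.42 ± 0.08 and 1.41 ± 0.12. Il6st and Stat3 then overlapped in both genotypes, as did Cntf with Socs3, Il11ra1 with Il6 and Il6 with Lif. Cntf stood at 30.1 ± 0.90 FPKM in WT TGF-β and 34.8 ± 4.77 in KO TGF-β.

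**Figure D2:**
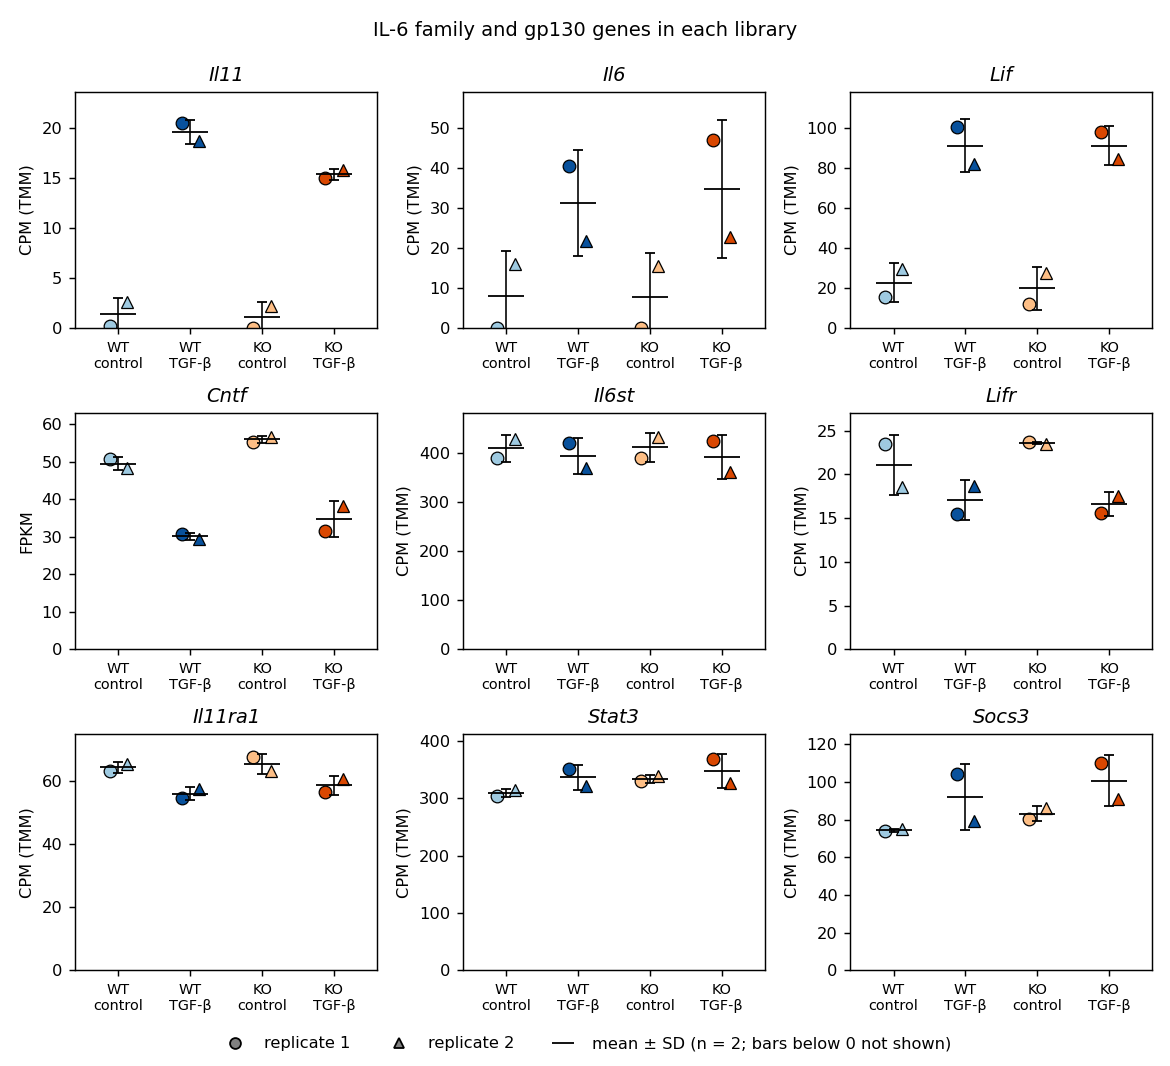
Levels of the 9 genes in each library, as TMM-scaled CPM for the 8 genes with counts and as FPKM for Cntf, with all axes from 0. Circles are replicate 1, triangles replicate 2, and bars the mean ± SD of 2 libraries. Il11 and Lif are higher in all 4 TGF-β libraries than in any control, Cntf is lower in all 4, and Il6 is at 0 in replicate 1 of both controls.

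Il11, a cytokine known for its part in fibrosis and for signalling through gp130, rose with TGF-β in both genotypes. The gene lies at chr7:4772373-4782859 on the minus strand (GRCm38). It had 4 and 43 counts in WT control and 370 and 293 in WT TGF-β. In KO cells it had 0 and 37 counts in control and 224 and 239 with TGF-β. Every stimulated library was thus well above every control library, and the 2 controls of each genotype were far apart.

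As CPM, Il11 went from 0.26 and 2.57 to 20.5 and 18.7 in WT, and from 0 and 2.19 to 15.0 and 15.8 in KO cells. The log2 fold change was 3.75 in WT (SE 0.73, 95% interval 2.07 to 5.43, adjusted p = 0.00668), which is 13.5-fold. In KO cells it was 3.76 (SE 0.77, 95% interval 1.97 to 5.55, adjusted p = 0.01). With Lif it makes 2 of 8 counted members past the threshold upward in each genotype, where 7.72% of all genes rose in WT and 6.61% in KO cells.

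The size of the Il11 change rested on the controls, although its call did not. Without control replicate 2 the change was 6.19 on the log2 scale in WT and 10.94 in KO cells, the latter against a single library at 0, and without control replicate 1 it was 2.93 and 2.79. With DESeq2 the call was lost, at adjusted p = 0.139 in WT and 0.153 in KO cells. Over the alternatives that used all libraries, the adjusted p of Il11 was between 0.00165 and 0.139 for WT and between 0.00238 and 0.153 for KO cells. The value of 0.00165 came from a replicate block chosen after the data were seen.

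Il6, the founding cytokine of the family and an inflammatory signal of reactive glia, lies at chr5:30013114-30019981 on the plus strand. It had 0 and 269 counts in WT control and 0 and 264 counts in KO control. With TGF-β it had 734 and 342 counts in WT and 700 and 343 in KO cells. All 4 stimulated libraries were above all 4 controls, but replicate 2 of each control was much nearer to them than replicate 1.

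At these depths a count of 0 allows up to 3 counts, or 0.194 CPM in WT control replicate 1 and 0.191 in KO control replicate 1, for counting error only. Il6 was therefore at least 83.0-fold higher in WT control replicate 2, and at least 81.6-fold higher in KO control replicate 2, than in replicate 1 of the same group. Of 13937 genes, Il6 was the 1 gene with at most 3 counts in both controls numbered 1 and at least 100 in both numbered 2. Stra6 was the 1 gene with the opposite pattern. Both limits were set after the counts of Il6 were seen, so its own match was fixed in advance.

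With such controls, the Il6 log2 fold change was 1.94 in WT (SE 1.24, adjusted p = 0.266) and 2.12 in KO cells (SE 1.24, adjusted p = 0.235). Neither passed the threshold. As folds, the 95% intervals were 0.53 to 27.9 for WT and 0.59 to 32.0 for KO cells, so they hold both no change and a rise above that of Lif. Without control replicate 1 the change of Il6 was 0.97 in WT and 1.14 in KO cells, and without control replicate 2, where only a library at 0 was left, 11.96 and 12.12.

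Lif, a ligand known for keeping stem cells undifferentiated and for driving astrocyte formation, starts at chr11:4257557 on the plus strand and ends at 4272514. It had 244 and 495 counts in WT control, or 15.7 and 29.5 CPM, and 1823 and 1280 counts in WT TGF-β, or 100.8 and 81.8 CPM. In KO cells it went from 192 and 466 counts, or 12.2 and 27.6 CPM, to 1465 and 1278 counts, or 98.2 and 84.4 CPM. The stimulated and control libraries did not overlap.

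On the log2 scale Lif rose by 2.01 in WT (SE 0.36, 95% interval 1.18 to 2.83, adjusted p = 0.00479), a 4.02-fold rise, and 2.19 in KO cells (SE 0.36, 95% interval 1.35 to 3.03, adjusted p = 0.00436), a 4.56-fold rise. Lif passed the threshold under every alternative, including each left-out library, although its size without single libraries was 1.63 to 2.52 in WT and 1.71 to 2.90 in KO cells. Both extremes came from leaving out a control, replicate 1 for the smaller change and replicate 2 for the larger.

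The low control replicate 1 was a shared feature of these 3 cytokines. Lif was 1.88-fold lower there than in replicate 2 in WT control and 2.25-fold lower in KO control, and Il11 was 9.95-fold lower in WT control and at least 11.4-fold lower in KO control. Of 13509 genes tested, 37 (0.274%) had a level in both controls numbered 1 of at most 1/2 of that in either control numbered 2. The opposite held for 41 (0.304%). Il11, Il6 and Timp1, a gene described below, were among the 37, and Lif was not. In the stimulated libraries it was replicate 1 that was higher for Il6, 1.86-fold in WT and 2.07-fold in KO cells, and for Lif, 1.23-fold and 1.16-fold. What set these libraries apart was not tested.

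Cntf, a ligand made by astrocytes and known for protecting neurons, fell. Its FPKM was 50.7 and 48.3 in WT control and 30.8 and 29.5 in WT TGF-β. In KO cells it was 55.3 and 56.7 in control and 31.5 and 38.2 with TGF-β. Every stimulated library was below every control.

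On the log2(FPKM + 1) scale, tested with limma, the change of Cntf was -0.70 in WT (SE 0.09, adjusted p = 0.00152) and -0.68 in KO cells (SE 0.09, adjusted p = 0.00188). On that scale TGF-β moved 7.98% of 13929 genes past the threshold in WT and 7.5% in KO cells, and the median of all genes moved by -0.111 and -0.112. Without KO TGF-β replicate 1 the change in KO cells was -0.54, short of the fold threshold. Cntf lies at chr19:12763660-12765632, within the span and on the strand of Zfp91, so reads of the pair could be split between them. Zfp91 itself was at 25.3 and 25.2 FPKM in WT control and 23.1 and 23.8 in WT TGF-β, and at 24.9 and 27.1 in KO control and 22.8 and 22.6 in KO TGF-β.

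Of 9 genes in the wider ligand list, 7 were tested, since Cntf and Il27 are not in the count table. The list was not independent of earlier results of these data. It had 2 genes that rose, Il11 and Lif, and none that fell in each genotype. Of all genes, 7.72% rose in WT and 6.61% in KO cells. The median of the log2 fold changes of the list was 0.36 for WT and 0.38 for KO cells, beside 0.00 for all genes in both. That median is the value of Osm in each genotype.

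Clcf1, a ligand of the CNTF receptor, had lower values with TGF-β than in control in every library, at 43.1 and 34.5 CPM against 28.0 and 26.7 in WT and 38.1 and 39.8 against 28.8 and 29.5 in KO cells. Its log2 fold change was -0.50 in WT (adjusted p = 0.00871) and -0.42 in KO cells (adjusted p = 0.021), short of the fold threshold, and it was singled out after its values were seen. Osm, the oncostatin M gene, was low in all libraries, between 3.6 and 6.9 CPM, with log2 fold changes of 0.36 (adjusted p = 0.337) and 0.38 (adjusted p = 0.336). Ebi3, a soluble subunit of IL-27, had the lowest value of the list, -1.13 in WT (adjusted p = 0.0684) and -0.74 in KO cells (adjusted p = 0.215), and was also named after its values were seen.

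**Figure D3:**
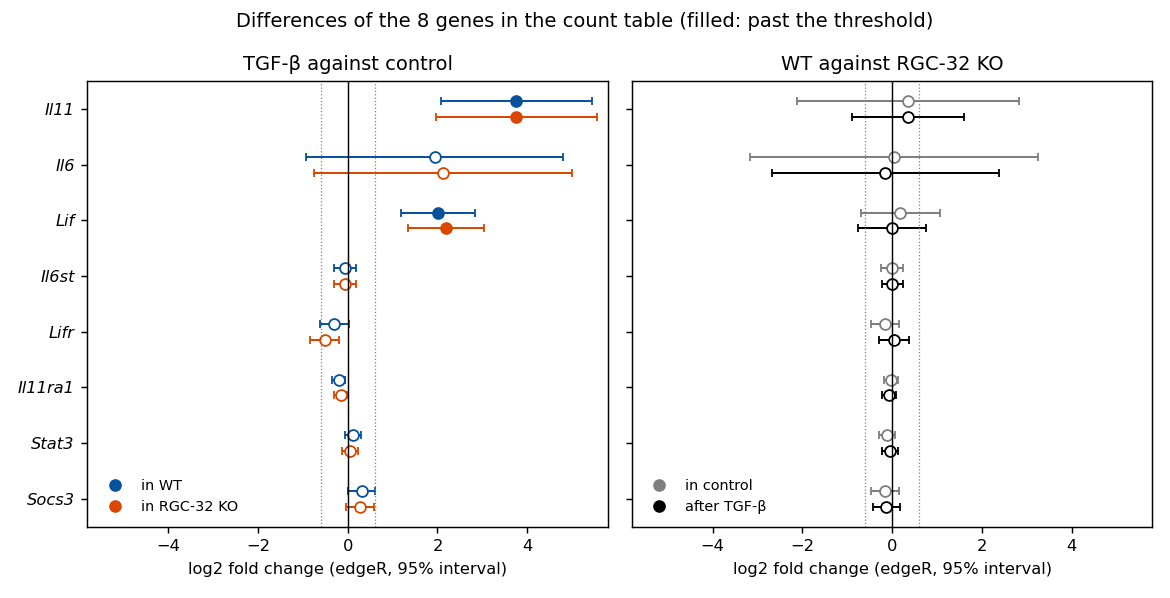
Log2 fold changes of the 8 counted genes with 95% intervals from edgeR, for TGF-β against control in each genotype (left) and WT against KO under each treatment (right). Filled points passed the threshold, open points did not, and dotted lines mark log2 fold changes of -0.6 and 0.6. Il11 and Lif are the filled points, and the intervals of Il6 and Il11 are several times wider than those of the receptors, Stat3 and Socs3.

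The receptors changed little. Il6st, which encodes gp130, had 6039 and 7179 counts in WT control and 7578 and 5757 in WT TGF-β, or 389.4 and 428.5 against 419.0 and 368.1 CPM. In KO cells it was at 389.8 and 432.0 CPM in control and 423.0 and 360.3 with TGF-β. The groups overlapped in both genotypes. On the log2 scale Il6st differed by -0.06 in WT (95% interval -0.30 to 0.19, adjusted p = 0.717) and -0.07 in KO cells (95% interval -0.31 to 0.17, adjusted p = 0.656), and neither interval reached the fold threshold.

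Lifr, the receptor that pairs with gp130 for LIF and CNTF, was at 23.5 and 18.6 CPM in WT control and 15.5 and 18.7 in WT TGF-β. It was at 23.7 and 23.5 CPM in KO control and 15.6 and 17.6 in KO TGF-β. Only in the knockout were the groups apart. With TGF-β Lifr differed by -0.30 on the log2 scale in WT (95% interval -0.62 to 0.02, adjusted p = 0.132) and -0.51 in KO cells (95% interval -0.83 to -0.18, adjusted p = 0.0302), the latter short of the fold threshold, and the difference between the genotypes was 0.20 (SE 0.20, unadjusted p = 0.33, adjusted p = 1.0).

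Il11ra1, which binds IL-11, was at 63.0 and 65.4 CPM in WT control and 54.5 and 57.2 in WT TGF-β, and at 67.5 and 62.9 in KO control and 56.4 and 60.5 in KO TGF-β. Control libraries were above stimulated ones in both genotypes, by a small margin. The log2 fold change was -0.20 in WT (SE 0.07, 95% interval -0.35 to -0.05, adjusted p = 0.0489) and -0.16 in KO cells (SE 0.07, adjusted p = 0.113), both short of the fold threshold. Il11ra2, a close copy of the gene, was at 0.043 FPKM or less in every library, although reads that both copies could hold cannot be told apart.

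Of the 7 genes in the receptor list none passed the threshold in either genotype, where 13.4% of all genes did in WT and 11.5% in KO cells. The median of their log2 fold changes was -0.01 for WT and -0.10 for KO cells. At an adjusted p under 0.05 alone, 1 of them passed in each genotype, Il11ra1 in WT and Lifr in KO cells. Osmr, the oncostatin M receptor, had log2 fold changes of -0.01 (adjusted p = 0.912) and -0.10 (adjusted p = 0.393). For Il6ra, the IL-6 receptor, they were 0.08 (adjusted p = 0.653) and -0.17 (adjusted p = 0.317), and the WT value changed sign with upper quartile scaling, at -0.01.

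Stat3, the factor on which these receptors converge, was at 304.2 and 313.3 CPM in WT control and 351.3 and 320.9 in WT TGF-β. It was at 329.1 and 338.7 CPM in KO control and 368.8 and 327.1 in KO TGF-β. The stimulated libraries were higher in WT by a margin smaller than their own spread, and the groups overlapped in the knockout. For Stat3 the log2 fold change was 0.12 in WT (95% interval -0.06 to 0.30, adjusted p = 0.259) and 0.06 in KO cells (95% interval -0.12 to 0.24, adjusted p = 0.598). Its sign was negative on the FPKM scale in both genotypes, at -0.03 and -0.08, so no direction is given.

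Socs3, the feedback inhibitor, was at 73.9 and 74.9 CPM in WT control and 104.5 and 79.5 in WT TGF-β, and at 80.5 and 86.1 in KO control and 110.2 and 91.0 in KO TGF-β. Stimulated libraries were above their own controls in both genotypes, and in each it was replicate 1 that stood higher. The log2 fold change was 0.31 in WT (SE 0.13, 95% interval -0.00 to 0.62, adjusted p = 0.113) and 0.27 in KO cells (SE 0.13, 95% interval -0.04 to 0.58, adjusted p = 0.162). Neither passed the threshold.

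**Figure D4:**
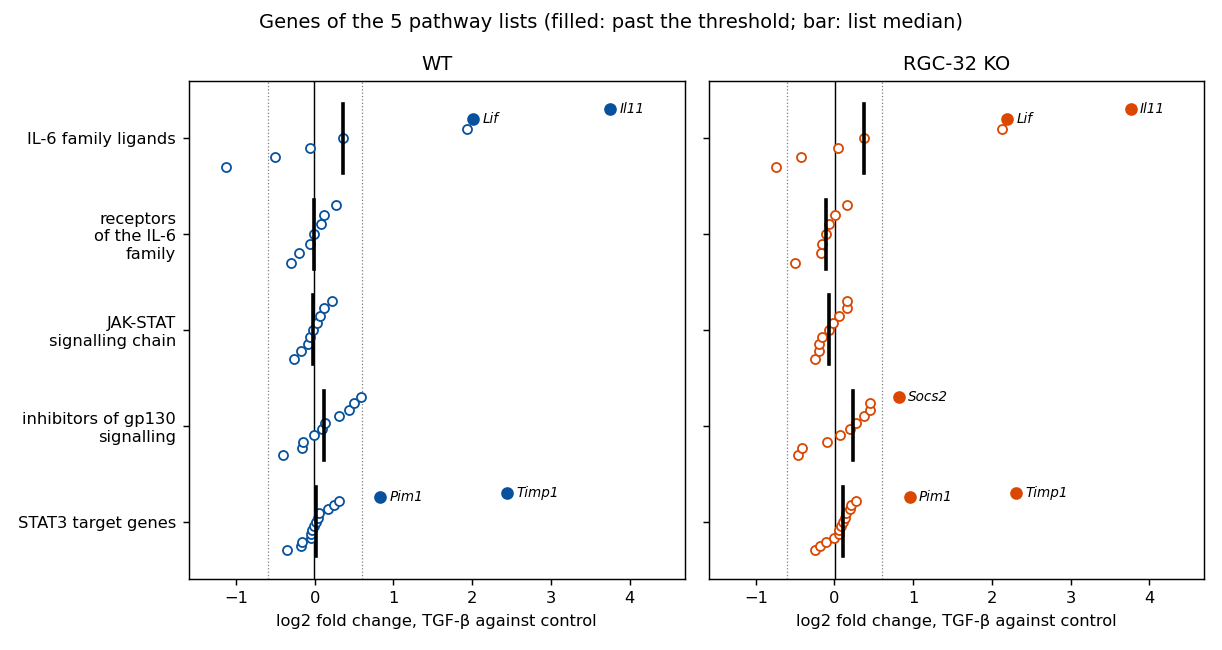
Log2 fold changes of TGF-β against control for the tested genes of 5 pathway lists, in WT (left) and KO astrocytes (right). Each point is a gene, filled and named where past the threshold, thick bars are list medians, the thin line is the median of all genes, and dotted lines mark -0.6 and 0.6. The genes past the threshold are Il11, Lif, Timp1 and Pim1 in both genotypes, and Socs2 in KO cells.

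None of the 9 genes in the list of Janus kinases, STATs and adaptors passed the threshold in either genotype, with medians of -0.02 in WT and -0.07 in KO cells. Of all genes, 13.4% passed it in WT and 11.5% in KO cells, where 6.61% rose. Of 10 inhibitor genes none passed in WT and 1 rose in KO cells, with medians of 0.11 and 0.23. That gene was Socs2, best known for restraining growth hormone signalling, at 3.2 and 3.3 CPM in WT control, 4.3 and 4.6 in WT TGF-β, 2.9 and 2.5 in KO control and 4.5 and 5.2 in KO TGF-β. The change of Socs2 was 0.43 on the log2 scale in WT (adjusted p = 0.0896) and 0.82 in KO cells (adjusted p = 0.0118), and the difference between genotypes was -0.39 (SE 0.25, unadjusted p = 0.154, adjusted p = 1.0). The call was lost without KO control replicate 2 (adjusted p = 0.0676) or KO TGF-β replicate 2 (adjusted p = 0.0991), and with DESeq2 (adjusted p = 0.102). Socs5, a related inhibitor named after its values were seen, had log2 fold changes of 0.59 (adjusted p = 0.00158) and 0.45 (adjusted p = 0.00572), both short of the fold threshold.

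Of 15 genes listed as STAT3 targets, Timp1 and Pim1 rose in both genotypes and none fell. Of all genes, 7.72% rose in WT and 6.61% in KO cells. The medians of the list were 0.02 in WT and 0.10 in KO cells. Timp1, an inhibitor of matrix metalloproteinases, went from 73.8 and 199.2 CPM to 779.7 and 710.4 in WT and from 86.4 and 188.5 to 767.7 and 596.0 in KO cells. Its log2 fold change was 2.45 (adjusted p = 0.00709) and 2.31 (adjusted p = 0.0104), and in KO cells the call was lost without control replicate 1 (adjusted p = 0.053). Timp1 is also a known target of TGF-β itself.

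Pim1, a kinase that supports cell survival, was at 23.9 and 16.9 CPM in WT control against 35.3 and 37.3 in WT TGF-β, and at 21.1 and 17.6 in KO control against 35.4 and 39.5 in KO TGF-β. Pim1 thus had log2 fold changes of 0.83 (adjusted p = 0.00605) and 0.95 (adjusted p = 0.0044). Without WT control replicate 2 it was 0.58 in WT, short of the fold threshold. The other genes of the list, Socs3 and the astrocyte filament gene Gfap among them, did not pass.

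The comparison of WT with KO cells asks whether the knockout alters these genes or their response to TGF-β. None of the 8 counted members passed the threshold in control cells, after TGF-β or in the interaction, where 0.037%, 0.0444% and 0% of all genes did with edgeR. DESeq2 and limma-voom called none of the 8 either, and no member had an unadjusted p under 0.05 in any of these 3 comparisons, against 6.84%, 11.7% and 2.82% of all genes. The smallest adjusted p of a counted member was 0.819 in control and 0.742 after TGF-β.

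Among the 8 counted members, only Il11 had stimulated libraries that did not overlap between WT and KO cells. They were at 20.5 and 18.7 CPM in WT TGF-β and 15.0 and 15.8 in KO TGF-β. The log2 fold change of WT against KO was 0.35 and did not pass the threshold (SE 0.54, 95% interval -0.90 to 1.60, adjusted p = 0.844). The response of Il11 to TGF-β differed between genotypes by -0.01 (95% interval -2.24 to 2.22). That interval is too wide to show that the responses were alike.

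Lif after TGF-β differed between genotypes by 0.00 (95% interval -0.76 to 0.76) and in its response by -0.18 (95% interval -1.35 to 0.99). Il6 differed by -0.15 after TGF-β (95% interval -2.68 to 2.38). Closer bounds were had for the abundant members. The WT against KO difference lay within -0.25 to 0.24 in control and -0.24 to 0.25 after TGF-β for Il6st, and within -0.29 to 0.07 and -0.23 to 0.13 for Stat3. Among the counted members, only Socs3 and Stat3 had control libraries that did not overlap between genotypes, each lower in WT. The log2 fold change was -0.16 for Socs3 (95% interval -0.47 to 0.15, adjusted p = 0.864) and -0.11 for Stat3 (adjusted p = 0.819). How many of all genes had genotypes apart in this way, in control or after TGF-β, was not counted. Cntf FPKM were lower in both WT libraries than in both KO libraries, in control and after TGF-β. With limma, Cntf was at -0.18 in control (unadjusted p = 0.0812, adjusted p = 0.581) and -0.20 after TGF-β (unadjusted p = 0.0563, adjusted p = 0.415). It was at -0.02 for the interaction. Of all genes, 0.0359%, 0.0359% and 0% passed the threshold there.

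For Il11 and Stat3 the genes with the most similar levels over the 8 libraries were found by Pearson's r of log2 CPM, as a description without a test. Nearest to Il11 were Angpt4 (r = 0.995), Aldh1a3 (r = 0.993) and Tnc (r = 0.992). Tnc, which encodes the matrix protein tenascin C, was at 260.7 and 699.1 CPM in WT control, 2453 and 1952 in WT TGF-β, 206.5 and 640.8 in KO control and 1973 and 1781 in KO TGF-β, with the lower control again in replicate 1. Nearest to Stat3 were Kars (r = 0.981), Socs3 (r = 0.942) and Il1a (r = 0.941). The 8 libraries share treatment groups and replicate structure, and every r here was computed over those shared groups.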

How the data were processed

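Total RNA of 8 unstranded libraries of primary mouse astrocytes was sequenced by the study, and reads were aligned with STAR in the VIPER pipeline; the submitters' processing notes name the build mm10, Cufflinks and DESeq. The authors deposited raw whole-number counts of reads for 13937 gene symbols; the counting program and its annotation are not given in the sources used here, nor is the rule by which Cntf is outside this table. The authors also deposited FPKM values for 18644 genes. The deposited tables of the authors' own DESeq2 comparisons hold fold changes and p-values and were not used. Libraries were matched to groups by the titles in the labels.

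The count analysis ran in edgeR 4.0.16 under R 4.3.3, and DESeq2 1.42.0 and limma 3.58.1 served as alternatives. After filterByExpr, 13509 genes were tested in 1 quasi-likelihood model with TMM scaling, a mean for each of 4 groups and no block, over all 8 libraries. It gave 5 comparisons: the effect of TGF-β in WT cells and in knockout cells, the effect of genotype under either treatment, and the interaction. P-values are two-sided, were adjusted by Benjamini-Hochberg over all genes tested, and measure the spread between 2 libraries a group. SE and 95% intervals were derived from the test statistic. CPM are counts scaled to the TMM-adjusted library, and likeness used log2 CPM with a prior count of 2. FPKM were tested with limma on log2(FPKM + 1), among 13929 genes with at least 0.5 FPKM in at least 2 libraries; fold changes on that scale understate those of low genes. Between replicates of a group, chi-square over its degrees of freedom was 6.26 to 10.4, above counting noise. The fit was tested on simulated counts first.

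The members and lists were chosen with earlier results of these data known. Of the ligand list as first drawn up, 1 gene is not reported here and was left out of that list's counts and median. Genes named are the 9 members, list genes past the threshold with TGF-β (at most 5 a list), Osm, Osmr, Il6ra and the 3 genes most like Il11 and Stat3 over the libraries; others are marked as named after their values were seen. Start-site windows came from RefSeq (GRCm38.p6), and gene positions from GENCODE M21 on GRCm38, of which mm10 is another name. Alternatives were other tools, scalings, filters, fold limits, fits on 4 libraries, blocks, FPKM and each library left out.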

Additional observations from a re-analysis of the deposited data

How the results depend on the processing

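Lif kept its direction and its call with TGF-β under every alternative run. Il11 kept its direction in the TGF-β comparisons and lost its call with DESeq2, so that 1 member was called there in each genotype; with at least 10 counts in every library, 1 was called, since Il11 and Il6 were not tested. The cause of the DESeq2 result was not tested. Depth limits the precision of Il11 and Il6 in control replicate 1, at 0 to 4 counts; why Il6 held 269 and 264 counts in control replicate 2 was not tested. Genes called with TGF-β numbered 1111 in WT with log2(FPKM + 1), and 4450 in WT and 3835 in KO cells without a fold limit. WT against KO gave 13 genes in control and 34 after TGF-β with DESeq2, 2 and 3 with the replicate block, 10 and 36 with the crossed replicate block, 2 in control with edgeR on 4 libraries and 3 after TGF-β with limma-voom. With upper quartile scaling the share of calls that rose was 44.8% in WT and 45.5% in KO cells, against 57.8% and 57.3% with TMM.

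The ligand list had 1 gene that rose with DESeq2 and with at least 10 counts in every library, in each genotype. It had genes that fell in WT with DESeq2, upper quartile scaling and the crossed block (1 each) and on both FPKM scales (2 each), and in KO cells with the crossed block and on both FPKM scales (1 each). In KO cells the receptor list had 1 that fell with log2(FPKM + 0.1), and the inhibitor list 0 that rose with DESeq2 and log2(FPKM + 1). With log2(FPKM + 1), 1 STAT3 target rose in WT. Leaving out 1 library gave 0 to 2 ligands that fell in WT, 0 to 1 inhibitor that rose and 0 to 1 that fell in WT, 0 to 2 inhibitors that rose in KO cells, and 1 to 2 STAT3 targets that rose in each genotype.

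Signs that turned belonged to values that passed no threshold. With TGF-β, Stat3 was at -0.031 with log2(FPKM + 1) and -0.032 with log2(FPKM + 0.1) in WT, and at -0.023 with upper quartile scaling, -0.080 with log2(FPKM + 1) and -0.082 with log2(FPKM + 0.1) in KO cells. Il6ra in WT was at -0.010, -0.024 and -0.028 under the same 3 settings. For WT against KO after TGF-β, Lif was at -0.0026 with limma-voom, -0.011 with upper quartile scaling, -0.066 and -0.069 on the FPKM scales and -0.0073 with the crossed replicate block, and Il6st at -0.0056 with upper quartile scaling and -0.0087 and -0.0088 on the FPKM scales. For the interaction, Il11 was at 0.011 with the replicate block and 0.079 with log2(FPKM + 1), Il11ra1 at 0.042 and 0.043 and Socs3 at -0.027 on both FPKM scales.

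Leaving out 1 library moved the genes called in WT with TGF-β to between 1200 and 1782, and those of WT against KO to 0 to 2 in control and 0 to 1 after TGF-β. A lone library was then assumed to vary like the other groups. With TGF-β, Il6st spanned -0.15 to 0.019 in WT cells and -0.19 to 0.021 in the knockout, Stat3 in KO cells -0.030 to 0.12, and in WT Il6ra -0.10 to 0.21, Osm -0.072 to 0.66 and Osmr -0.096 to 0.052. For WT against KO in control, Il11 spanned -2.10 to 7.54, Il6 -10.00 to 10.03, Lif -0.35 to 0.89, Il11ra1 -0.073 to 0.028 and Il6st -0.080 to 0.069. After TGF-β, Il6 spanned -0.65 to 0.45, Lif -0.15 to 0.13, Il6st -0.094 to 0.12, Lifr -0.11 to 0.19, Socs3 -0.33 to 0.045 and Stat3 -0.12 to 0.028. For the interaction, Il11 spanned -7.19 to 2.45, Il6 -10.18 to 9.86, Lif -0.89 to 0.35, Il6st -0.081 to 0.13, Il11ra1 -0.098 to 0.024, Socs3 -0.16 to 0.21, Stat3 -0.0048 to 0.15 and Cntf -0.16 to 0.11.

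The replicate numbers are shared by the groups in the labels, which tie them to no culture or day. Differences between replicates 1 and 2 correlated at 0.491 between the controls and 0.253 between the TGF-β groups, and at -0.343 in WT and -0.348 in KO cells between control and TGF-β. The replicate block gave 1616 genes in WT and 1369 in KO cells with TGF-β and 2 members in each. A crossed replicate block, chosen after seeing the data as were the block and unfiltered fits of Cntf, gave 2105 and 1852 genes, and Il6 in KO cells then passed the threshold at 2.37 (adjusted p = 0.046).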

Other observations

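The marker lists of other cell types not described above also moved with TGF-β, as measured by edgeR. Of all genes, 13.4% passed the threshold in WT and 11.5% in KO cells. Of 5 tested ependymal markers, 4 fell in WT and 2 in KO cells, and their summed level was 360.9 to 431.4 CPM in the 4 controls and 229.2 to 286.7 in the 4 stimulated libraries. Of 7 oligodendrocyte lineage markers, 1 rose and 1 fell in WT and 2 rose and 1 fell in KO cells. Their sum was 367.0 to 386.9 CPM in control and 457.7 to 618.6 with TGF-β, but without Cspg4, left out after its values were seen, it was 338.4 to 362.7 CPM in control and 279.2 to 357.4 with TGF-β. Of 5 endothelial markers, 1 rose and 1 fell in WT and 1 rose and 2 fell in KO cells, at a sum of 99.3 to 126.9 CPM in control and 66.9 to 80.0 with TGF-β. Of 4 tested neuronal markers, Tubb3 rose in both genotypes, and the sum was 205.1 to 230.3 CPM in control and 264.3 to 316.0 with TGF-β. Of the 10 astrocyte markers, the glutamate transporter gene Slc1a2 and the connexin gene Gjb6 fell in both genotypes and none rose.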
